A study of Homo sapiens with 9 samples.

Results

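The integrated stress response is the route by which cells slow protein synthesis and turn on a repair program when amino acids, heme, protein folding or mitochondria fail. Stress-activated kinases phosphorylate the alpha subunit of the initiation factor eIF2, general translation falls, and the mRNA of the transcription factor ATF4 is translated better because of short reading frames in its leader. ATF4 then acts with C/EBP partners on genes of amino acid supply, and with ATF3 and CHOP (the product of DDIT3) on genes of cell death and feedback. Hypoxia is a known trigger of this response in tumor cells. The genes described here are 10 core genes of this response, taken by gene symbol with earlier results of these data known. They are the transcription factors and cofactors ATF4, ATF3, ATF5, DDIT3, CEBPG and NUPR1, and the effectors and feedback genes TRIB3, CHAC1, SESN2 and PPP1R15A. They were 10 of the 60683 genes in the count table, and all 10 were among the 22672 genes with enough counts to test.

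RNA was sequenced from Hep3B cells, a human liver cancer line, after 24 hours of culture in 3 groups of 3 replicates. The groups were DMSO vehicle at 20% O2, DMSO vehicle at 1% O2, and 32-134D at 1% O2, where 32-134D is the compound that the study developed as an inhibitor of hypoxia-inducible factors (HIFs). The labels name no genetic change and state no dose of the compound, and there was no library with 32-134D at 20% O2, so an action of the compound that needs hypoxia and one that does not cannot be told apart. The replicates are described as biological, in wells of one line, and nothing says that they came from different days, so the p-values measure the spread between these wells. The values are mRNA levels. ATF4 is regulated to a large part in translation, which these data do not measure.

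Library totals ran from 6013980 to 40549699 counts, with the smallest in replicate 2 of vehicle at 20% O2. The 8 hepatocyte and hepatoma markers were detected in every group, with summed levels of 16646 to 17962 CPM (counts scaled to library size with TMM factors) in vehicle at 20% O2, 11617 to 14461 CPM in vehicle at 1% O2 and 11159 to 16546 CPM with 32-134D. Of 7 genes of leukocytes, endothelium and fibroblasts, 1 was at 0 throughout, and their sum was at most 12.1 CPM in any library. Replicate 3 of 32-134D stood apart from replicates 1 and 2. Its chi-square per degree of freedom against them was 36.4 and 32.5, against 2.0 between replicates 1 and 2. The main results that rest on this library are given with and without it. In the vehicle groups replicate 1 differed most from the others, by less. It had 6.2 and 12.0 against 1.6 between replicates 2 and 3 at 20% O2, and 7.9 and 11.8 against 2.5 at 1% O2.

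The promoters of these genes were read for the sequence elements that the response is known for. The core sequence TGATGNAA, where N is any base, is that of the C/EBP-ATF response element, to which ATF4 binds with C/EBP proteins. It was searched on both strands from 250 bases before to 50 bases after the RefSeq start sites (GRCh38.p14), and it was found in 3 of the 9 core genes with an entry, or 33.3%. It was found in 12 of 30 further ATF4 targets with an entry (40%), against 4.46% of 27305 genes. A gene counted if any of its windows matched, and the sets differ in windows per gene. There were 17 windows for the 9 core genes, 42 for the 30 targets and 35116 for all genes. The targets were listed from general knowledge of the response, which includes this element. The matches in the core genes are shown as they read on the gene's own strand, with the core in capitals, beside that of ASNS, the asparagine synthetase gene, whose element is the textbook case.

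ATF3: aaaggtcaggaTGATGGAAggctgtcatat
CEBPG: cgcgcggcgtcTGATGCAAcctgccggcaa
CHAC1: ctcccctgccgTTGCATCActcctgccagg
ASNS: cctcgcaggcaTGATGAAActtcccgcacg

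The ATF3 window (chr1:212565205-212565234, plus strand) began its core 191 bases before the RefSeq start and lay in no gene of GENCODE version 29. The CEBPG window (chr19:33374060-33374089, plus strand) had its core 42 bases before the start used and lay in an intron of the CEBPG transcripts. The CHAC1 window (chr15:40953251-40953280, plus strand) carries the core on the opposite strand, where it reads TGATGCAA, 209 bases before the start used and within a CHAC1 exon of other transcripts. The ASNS window (chr7:97872458-97872487, minus strand) had its core 68 bases before the start used. The shorter core TGATGNA, which lacks the last letter and so also matches every site of the longer one, gave the same 3 core genes, 13 of the 30 further targets (43.3%) and 12.1% of all genes. The palindrome TGACGTCA, the CREB and ATF element, was added after the data were seen and was found in 1 of the 9 core genes, in none of the 30 targets and in 2.25% of all genes. That gene was PPP1R15A, shown with the palindrome in capitals.

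PPP1R15A: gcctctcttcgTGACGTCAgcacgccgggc

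This window (chr19:48872352-48872381, plus strand) had its palindrome 58 bases before the start site. A match is a description of the letters, and a window without one says nothing about the factor.

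The leaders of these mRNAs were also counted, since upstream start codons are the feature by which ATF4 escapes the translational block. In GENCODE version 29, ATF4 had 7 upstream ATG codons in a leader of 882 bases, of which 2 opened frames that overlap the coding start out of frame. ATF5, which is known for the same kind of control, had 2 in 377 bases. Leaders were read in 1 transcript for each gene, chosen by its principal rank and then its length, and other transcripts may differ. In that transcript CHAC1, with a leader of 20 bases, was the one core gene without an upstream ATG. The other 9 of the 10 had at least 1 (90%), against 51.7% of 19533 protein-coding genes, and the median leader was 295 bases against 180 bases.

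Hypoxia raised 9 of the 10 core genes. The exception was ATF5, whose difference was under the fold change threshold. The largest increases were in ATF3, PPP1R15A and TRIB3, at 22.7-fold, 7.19-fold and 6.13-fold, and the smallest called one was in SESN2 at 1.72-fold. A call needed a Benjamini-Hochberg FDR below 0.05 from edgeR's quasi-likelihood test over all 22672 genes and a fold change above 1.5, and 19.5% of all genes were called higher and 20.3% lower in this comparison. All 10 core genes had every library of vehicle at 1% O2 above every library of vehicle at 20% O2, as had 32.3% of all genes. The median log2 fold change was 2.11 over the core genes and 0.0010 over all genes. Together the 10 genes took 0.0874% to 0.0941% of the counts in vehicle at 20% O2, 0.274% to 0.284% in vehicle at 1% O2 and 0.143% to 0.168% with 32-134D.

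With 32-134D, 8 of the 10 core genes fell relative to vehicle at 1% O2, and none had a log2 fold change above 0. The largest decrease was in PPP1R15A, at 2.69-fold, and the others lay between 1.55-fold for CEBPG and 2.33-fold for DDIT3. ATF5 and SESN2 were not called. In this comparison 13.7% of all genes were called lower and 16.2% higher, and 30.8% of all genes had every 32-134D library below every vehicle library at 1% O2, as had the 8 core genes. The core genes' median log2 fold change was -1.12, against -0.012 over all genes. Both comparisons use the vehicle libraries at 1% O2, so their opposite signs are not independent.

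Against vehicle at 20% O2, 6 of the 10 core genes remained higher with 32-134D, where 3.0% of all genes were called higher and 0.516% lower. They were ATF3, CHAC1, TRIB3, PPP1R15A, ATF4 and DDIT3. In 9 of the 10 every 32-134D library lay above every library of vehicle at 20% O2, as in 17.0% of all genes, and the exception was NUPR1. The median log2 fold change was 0.91, against -0.0028 over all genes. In bulk RNA, fewer responding cells and less RNA per cell cannot be told apart, so a value between those of the vehicle groups may stand for either. This comparison shares the 32-134D libraries with the second and the vehicle libraries at 20% O2 with the first.

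**Figure D1:**
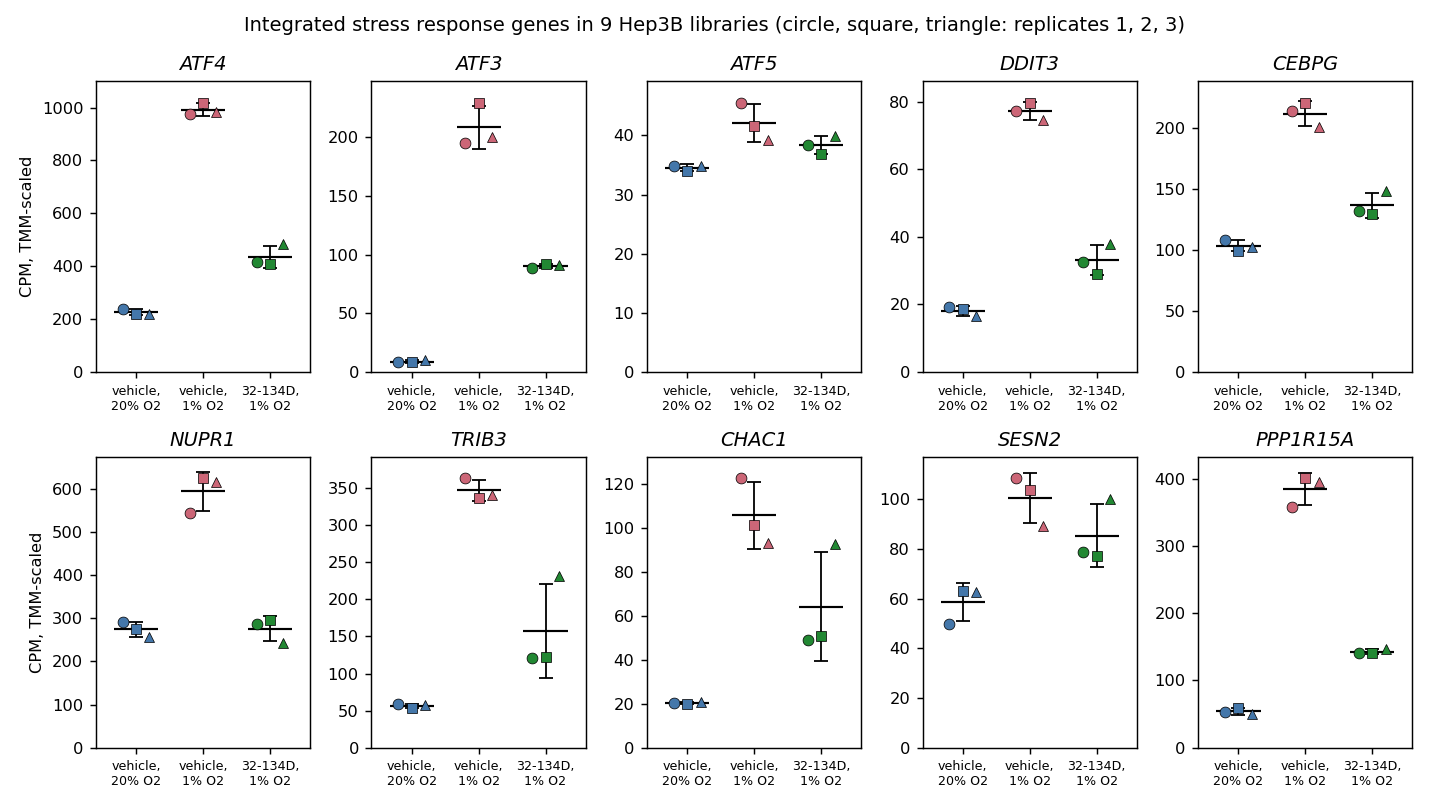
Level of each core gene in CPM, scaled with TMM factors, on an axis from 0 in each panel. Points are the 3 replicates of each group, the long line is the mean and the bars are 1 SD. In 8 panels the 3 green 32-134D points lie below all red points of vehicle at 1% O2, and in TRIB3 and CHAC1 the triangle of replicate 3 lies well above the other 2 green points.

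ATF4 (ENSG00000128272, chromosome 22, 39519695 to 39522685 in GRCh38) encodes the transcription factor at the center of the response. Its level was 238, 221 and 221 CPM in replicates 1, 2 and 3 of vehicle at 20% O2, 974, 1019 and 984 CPM in vehicle at 1% O2, and 415, 408 and 484 CPM with 32-134D. The 3 groups did not overlap, and the 32-134D libraries lay nearer to vehicle at 20% O2. On the log2 scale ATF4 was higher by 2.13 in hypoxia, with a standard error of 0.08 and an edgeR FDR of 4.09e-11. The value for 32-134D was -1.19 with the same standard error and an edgeR FDR of 2.42e-08, and a difference of 0.94 remained against vehicle at 20% O2 (edgeR FDR 2.42e-06). Per kilobase of annotated exon, ATF4 had the highest level of the 10 in every group, at 90.2 ± 3.98, 395 ± 9.33 and 173 ± 16.8 CPM per kb (SD, n = 3). Without division by length, NUPR1 was higher than ATF4 in vehicle at 20% O2, with means of 275 and 227 CPM. Its 4 listed pseudogenes ATF4P1 to ATF4P4 held 1 to 302 counts each over the 9 libraries, against 136174 for ATF4.

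ATF3 (ENSG00000162772, chromosome 1, 212565334 to 212620777) encodes a stress-induced factor of the same family that is itself a target of ATF4. It rose from the lowest level of the 10 genes per kilobase. Its CPM was 8.39, 8.32 and 10.1 in vehicle at 20% O2, 195, 230 and 201 in vehicle at 1% O2, and 88.3, 91.9 and 91.0 with 32-134D. The groups stood far apart, and the 3 libraries with 32-134D differed little from each other. Its log2 fold change was 4.51 in hypoxia (FDR 9.55e-13 from edgeR) and -1.20 with 32-134D (FDR 4.09e-08 from edgeR). Relative to vehicle at 20% O2 it was still 9.85-fold higher with 32-134D (log2 3.30, 95% interval 3.09 to 3.52), the largest such difference among the 10.

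DDIT3 (ENSG00000175197, chromosome 12, 57516588 to 57521737, minus strand) encodes CHOP, the factor that links lasting stress to cell death. It had 19.4, 18.7 and 16.5 CPM in vehicle at 20% O2, 77.3, 79.7 and 74.6 CPM in vehicle at 1% O2, and 32.5, 29.1 and 37.9 CPM with 32-134D. No library of one group reached the range of another. The log2 fold changes were 2.10 in hypoxia (FDR 7.17e-10 from edgeR), -1.22 with 32-134D (FDR 1.68e-07 from edgeR) and 0.88 against vehicle at 20% O2. Of its 1307 exon bases, 518 are shared with overlapping genes, among them MARS1 on the opposite strand. The strand setting of the counting is not given in the sources used here, so reads of these genes cannot be told apart there. The level of MARS1 was 234 CPM in vehicle at 20% O2, 440 CPM in vehicle at 1% O2 and 349 CPM with 32-134D (means of 3), and its part in the DDIT3 values was not tested.

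CEBPG (ENSG00000153879, chromosome 19, 33373330 to 33382686) encodes a C/EBP protein that pairs with ATF4. It rose in hypoxia, from 108, 99.4 and 103 CPM in vehicle at 20% O2 to 214, 221 and 201 CPM in vehicle at 1% O2, and was 132, 130 and 148 CPM with 32-134D. The groups did not overlap. On the log2 scale the difference was 1.03 in hypoxia (edgeR FDR 2.78e-08) and -0.63 with 32-134D (edgeR FDR 6.03e-06), a fold of 1.55 that lies just past the threshold of 1.5. It fell under that threshold without replicate 1 of 32-134D (-0.55), without replicate 1 of vehicle at 20% O2 (-0.57) and with DESeq2 (-0.57), with the FDR below 0.05 in each. Its difference from vehicle at 20% O2, 0.40, was under the fold change threshold.

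NUPR1 (ENSG00000176046, chromosome 16, 28532708 to 28539174, minus strand) encodes a small stress-induced chromatin protein. Its level was 292, 275 and 258 CPM in vehicle at 20% O2, 543, 625 and 616 CPM in vehicle at 1% O2, and 287, 297 and 244 CPM with 32-134D. It was the one core gene whose 32-134D libraries overlapped those of vehicle at 20% O2. The log2 fold change was 1.11 in hypoxia (FDR 6.66e-08 from edgeR) and -1.11 with 32-134D (FDR 1.62e-07 from edgeR). Against vehicle at 20% O2 it was 0.01, with a 95% interval of -0.18 to 0.19 (FDR 0.985 from edgeR). That value lay on either side of 0 across the alternatives.

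ATF5 (ENSG00000169136, chromosome 19, 49928702 to 49933935) encodes a relative of ATF4 that is tied to the mitochondrial stress response. Its CPM was 34.9, 33.9 and 34.9 in vehicle at 20% O2, 45.6, 41.6 and 39.2 in vehicle at 1% O2, and 38.4, 36.8 and 39.8 with 32-134D. The vehicle groups did not overlap, but the 32-134D libraries overlapped those of vehicle at 1% O2. The log2 fold change in hypoxia was 0.28 (95% interval 0.11 to 0.46), with an FDR of 0.00868 from edgeR and a fold of 1.22. With 32-134D it was -0.14 (95% interval -0.31 to 0.03, FDR 0.176 from edgeR). Scaled by total library size, this last value was above 0. ATF5 shares 700 of its 2954 exon bases with overlapping genes, IL4I1 and NUP62 on the opposite strand among them.

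PPP1R15A (ENSG00000087074, chromosome 19, 48872392 to 48876057) encodes GADD34, the inducible subunit that brings protein phosphatase 1 to eIF2alpha and so ends the response. It had 52.6, 59.5 and 49.5 CPM in vehicle at 20% O2, 357, 400.4 and 395 CPM in vehicle at 1% O2, and 140.1, 141 and 147 CPM with 32-134D. The groups were well separated and the 32-134D libraries lay close together. Its log2 fold change of 2.85 in hypoxia had an FDR of 4.54e-12, and that of -1.43 with 32-134D had an FDR of 5.11e-09 (edgeR). Against vehicle at 20% O2 it was 1.42 higher on the log2 scale.

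TRIB3 (ENSG00000101255, chromosome 20, 362835 to 397559) encodes a pseudokinase that is induced by ATF4 and CHOP and damps both. Its level was 58.4, 53.9 and 57.1 CPM in vehicle at 20% O2, 363, 336 and 341 CPM in vehicle at 1% O2, and 121, 122 and 231 CPM with 32-134D. Replicate 3 of 32-134D stood nearly midway between the other replicates of its group and vehicle at 1% O2, without overlap. TRIB3 rose by 2.62 on the log2 scale in hypoxia (FDR 3.55e-08 from edgeR). The value with 32-134D was -1.14, with a standard error of 0.18 and an edgeR FDR of 0.000115, and leaving out replicate 3 made it -1.52.

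CHAC1 (ENSG00000128965, chromosome 15, 40952962 to 40956519) encodes an enzyme that degrades glutathione. It had 20.6, 19.8 and 20.9 CPM in vehicle at 20% O2, 123, 102 and 93.3 CPM in vehicle at 1% O2, and 49.1, 50.9 and 92.9 CPM with 32-134D. Replicate 3 of 32-134D almost reached the lowest library of vehicle at 1% O2, and the other 2 lay well below it. The log2 fold change was 2.37 in hypoxia (FDR 1.70e-07 from edgeR) and -0.73 with 32-134D, with a standard error of 0.19 and an edgeR FDR of 0.00462. Without replicate 3 of 32-134D it was -1.08. Without replicate 1 or 2 it was -0.51 and -0.58, under the fold change threshold.

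SESN2 (ENSG00000130766, chromosome 1, 28259527 to 28282491) encodes sestrin 2, a leucine sensor that restrains mTORC1. Its CPM was 49.8, 63.1 and 62.8 in vehicle at 20% O2, 108, 104 and 89.1 in vehicle at 1% O2, and 78.7, 77.3 and 99.97 with 32-134D. Replicate 3 of 32-134D lay within the range of vehicle at 1% O2, and the other 2 lay below it. The log2 fold change was 0.78 in hypoxia (FDR 4.72e-05 from edgeR) and -0.24 with 32-134D (95% interval -0.48 to 0.01, FDR 0.104 from edgeR). Against vehicle at 20% O2 it was 0.54 (FDR 0.00894 from edgeR), under the fold change threshold, which it passed in 5 of the 9 fits that left out 1 library. With total library size the increase in hypoxia was 0.57 and also under that threshold.

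**Figure D2:**
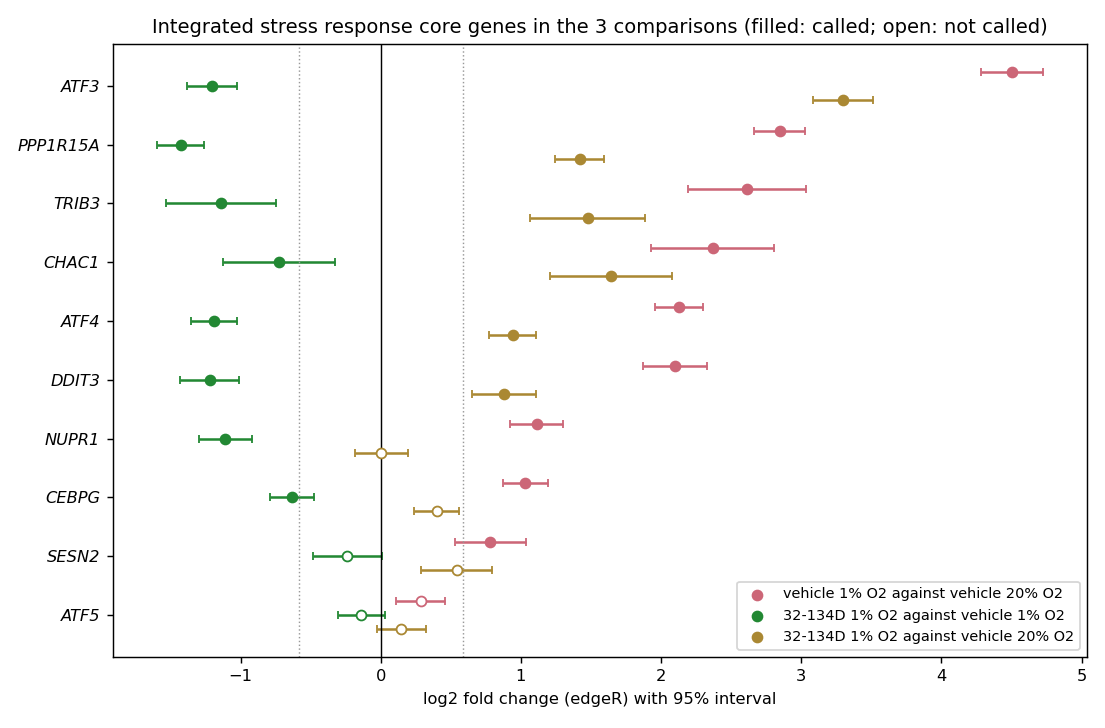
Log2 fold change of each core gene with its 95% interval in the 3 comparisons, from edgeR. Filled points were called, open points were not, and dotted lines mark a fold of 1.5. Red and green points lie on opposite sides of 0 for all 10 genes, although the value of ATF5 with 32-134D was above 0 when scaled by total library size. The yellow point of NUPR1 lies at 0.01.

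Ordered by level per kilobase of annotated exon, the 10 genes changed places between the groups. In vehicle at 20% O2 ATF4 was followed by NUPR1 at 48.5 ± 3.06 and CEBPG at 23.5 ± 1.04 CPM per kb (SD, n = 3). PPP1R15A, SESN2 and TRIB3 came next, between 16.4 and 17.4 CPM per kb, and did not differ beyond their spread. DDIT3 at 13.9 ± 1.15, ATF5 at 11.7 ± 0.190 and CHAC1 at 9.93 ± 0.284 stood above ATF3 at 2.21 ± 0.249 CPM per kb. In vehicle at 1% O2 PPP1R15A came next after ATF4, at 124 ± 7.60 CPM per kb. NUPR1 at 105 ± 7.89 and TRIB3 at 101 ± 4.19 CPM per kb did not differ beyond their spread, and neither did ATF3, CHAC1 and CEBPG, at 51.6 ± 4.58, 51.5 ± 7.38 and 48.1 ± 2.30. ATF5 was lowest, at 14.3 ± 1.09 CPM per kb, and was lowest with 32-134D as well, at 12.98 ± 0.515. The place of NUPR1 depends on its annotated length of 5674 bases, of which 5491 lie in 1 annotated transcript. Other places depend on the length used as well. Per kilobase of 1 principal transcript for each gene, TRIB3 at 138.8 ± 5.75 stood above NUPR1 at 108.3 ± 8.15 in vehicle at 1% O2. ATF3, CHAC1 and CEBPG were then apart, at 102.5 ± 9.11, 67.9 ± 9.7 and 51.6 ± 2.47. In vehicle at 20% O2 SESN2, at 16.97 ± 2.2, then lay below PPP1R15A at 22.7 ± 2.16 and TRIB3 at 22.6 ± 0.932.

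By the distance between their profiles over the 9 libraries, ATF4 and DDIT3 were the closest pair among the core genes, at 0.0677. The distance is the root mean square difference between log2 CPM profiles centered on each gene's mean. The profiles were not scaled, so it holds the size of a change as well as its shape. ATF3 and ATF5 were the farthest apart, at 1.81. Among 11141 genes with a mean of at least 5 CPM, the profiles nearest to ATF4 were those of HERPUD1 (0.0560), EIF1 (0.0592), ZBTB21 (0.0660), DDIT3 and ZNF581 (0.0749). DDIT3 was nearest to ATF4, then to HERPUD1, EIF1, SNHG7 and TNFRSF10D, at 0.101 to 0.106. CHAC1 had no neighbor as close, and its nearest were DUSP5 (0.160), ASNS (0.163), TXNRD1 (0.166), SPOCK2 (0.188) and TRIB3 (0.192). These distances are descriptions over libraries that fall into 3 groups.

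Upstream of ATF4, the kinases that start the response differed from each other. EIF2AK3, which encodes PERK, the kinase of the endoplasmic reticulum, had 30.8, 31.4 and 32.8 CPM in vehicle at 20% O2, 83.3, 85.4 and 90.6 CPM in vehicle at 1% O2, and 41.1, 43.7 and 35.9 CPM with 32-134D. It rose by a log2 fold change of 1.45 in hypoxia (FDR 3.62e-09 from edgeR) and fell by 1.10 with 32-134D (FDR 9.68e-08 from edgeR), with all 3 groups apart. The heme-regulated kinase EIF2AK1, the RNA-activated kinase EIF2AK2 and the amino acid sensor EIF2AK4 had log2 fold changes of 0.03, 0.01 and 0.08 in hypoxia and were not called in any comparison. Of the mitochondrial relay, the protease OMA1 was higher by 0.64 in hypoxia, and its partner DELE1 had -0.39, under the fold change threshold. In all, 2 of the 6 genes were called higher in hypoxia and 1 lower with 32-134D, where 19.5% and 13.7% of all genes tested were, and none either way by edgeR against vehicle at 20% O2, where EIF2AK3 had 0.34 with an FDR of 0.0205. The first count was 1 without replicate 2 of vehicle at 20% O2 or without replicate 1 of 32-134D, and the second was 2 without replicate 1 of vehicle at 1% O2 or of 32-134D.

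Among 12 genes of eIF2, its exchange factor eIF2B and the phosphatase, 7 were higher in hypoxia and 5 lower with 32-134D, beside the same 19.5% and 13.7% of all genes, with none called in the opposite direction by edgeR. The largest increase was in PPP1R15B, the constitutive counterpart of PPP1R15A, with log2 fold changes of 2.05 in hypoxia, -1.15 with 32-134D and 0.90 against vehicle at 20% O2. It was the 1 gene of the list called in that last comparison, where 3.0% of all genes were called higher. EIF2S2, the beta subunit of eIF2, gave 1.45 and -0.88. The phosphatase catalytic subunit gene PPP1CB rose by 0.96 and EIF2S1, which encodes eIF2alpha itself, by 0.90. The count lowered by 32-134D was 2 with DESeq2, 2 or 3 without replicate 1 of vehicle at 20% O2, replicate 2 or 3 of vehicle at 1% O2, or replicate 1 or 2 of 32-134D, and 6 without replicate 3 of 32-134D. The count higher than in vehicle at 20% O2 was 2 without replicate 1 of vehicle at 20% O2, replicate 3 of vehicle at 1% O2, or replicate 1 or 2 of 32-134D.

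The targets of ATF4 outside the 10 core genes moved in the same direction as the core genes did. Of 35 such targets, most of them genes of amino acid synthesis, amino acid transport and tRNA charging, 33 were higher in hypoxia and all 35 had values above 0, with a median log2 fold change of 1.49. With 32-134D 23 were lower (median -0.70), and the 2 with values above 0, ALDH1L2 and SLC7A11, had edgeR FDRs of 0.787 and 0.717. Without replicate 3 of 32-134D the values of these 2 were -0.38 and -0.66, and SLC7A11 was called lower. Of the 35, 25 remained higher than in vehicle at 20% O2 (median 0.78). Over all genes tested, 19.5% were called higher in hypoxia, 13.7% lower with 32-134D and 3.0% higher than in vehicle at 20% O2. The medians over all genes were 0.0010, -0.012 and -0.0028 in the same order. This list of targets was written with earlier results of these data known. The 4 largest increases in hypoxia were in DDIT4, an inhibitor of mTORC1 that HIF also induces, STC2, a secreted glycoprotein, GDF15, a stress hormone, and MTHFD2, a mitochondrial folate enzyme.

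DDIT4 had 48.8, 55.6 and 54.3 CPM in vehicle at 20% O2, 902, 913 and 957 CPM in vehicle at 1% O2, and 174, 173 and 272 CPM with 32-134D, with log2 fold changes of 4.13 in hypoxia and -2.17 with the compound. GDF15 had 171, 179 and 168 CPM, then 1982, 2210 and 2233 CPM, then 944, 973 and 1660 CPM in the same order, with 3.63 and -0.85. Both had replicate 3 of 32-134D above the other 2, and without it the difference with the compound was -2.42 for DDIT4 and -1.16 for GDF15. STC2 gave 3.99 and -1.83, and MTHFD2 gave 2.97 and -1.18. The 2 targets not called in hypoxia were ALDH1L2 (0.07) and PSPH (0.11), which are named after their values were seen.

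**Figure D3:**
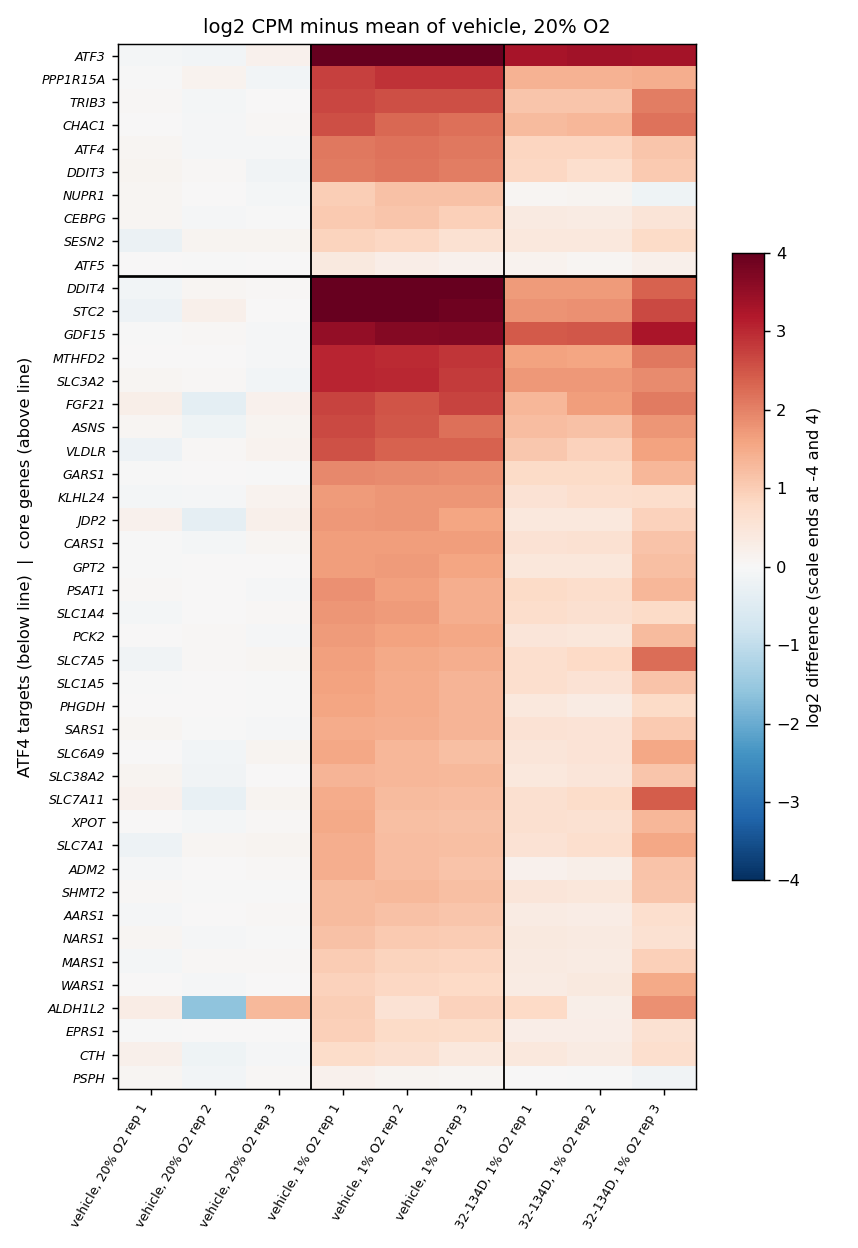
Log2 CPM of the 10 core genes (above the line) and 35 further ATF4 targets (below it) in each of the 9 libraries, minus the gene's mean in vehicle at 20% O2. Color runs from -4 to 4, and larger values are drawn at the end of the scale. The 3 columns of vehicle at 1% O2 are darkest for most genes, and replicate 3 of 32-134D is darker than replicates 1 and 2 in 34 of the 35 targets.

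Replicate 3 of 32-134D held higher levels of the ATF4 targets than the other libraries of its group. It lay above both replicates 1 and 2 in 34 of the 35 targets (97.1%) and in 8 of the 10 core genes (80%), against 42.8% of 11141 genes with a mean of at least 5 CPM. Its median difference from the mean of the other 2 was 0.60 on the log2 scale for the targets, 0.21 for the core genes and -0.01 for all those genes. This look at replicate 3 by list was added after the data were seen, and the libraries of 1 group give no test of it.

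The size of the difference varied among the core genes. TRIB3 was 0.93 higher on the log2 scale in replicate 3 and CHAC1 was 0.89 higher, SESN2, DDIT3 and ATF4 were 0.36, 0.30 and 0.24 higher, ATF3 was 0.02 higher, and NUPR1 was 0.26 lower (-0.26). The largest differences among the targets, named after their values were seen, were in SLC7A11, the cystine transporter, at 1.74, and SLC7A5, the leucine transporter, at 1.49. SLC7A11 had 28.0 and 29.9 CPM in replicates 1 and 2 of 32-134D and 97.0 CPM in replicate 3, above all libraries of vehicle at 1% O2, whose highest was 50.2 CPM. SLC7A5 likewise had 240.2, 263 and 708 CPM with 32-134D, against 413 to 469 CPM in vehicle at 1% O2.

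Other lists in replicate 3 are given beside the 11141 genes with a mean of at least 5 CPM. Of those genes 42.8% lay above both other replicates, with a median difference of -0.01. With lists this small, nothing particular to one is read from its count. Of the 7 mitochondrial chaperones and proteases, 6 lay above both other replicates (85.7%), with a median difference of 0.18 on the log2 scale. The 6 genes linked to CHOP had 4 above both (median 0.32). The 12 genes of eIF2, eIF2B and the phosphatase had 8 (median 0.10), and the 11 relatives of the factors had 7 (median 0.09). The 5 HIF targets CA9, ANGPTL4, VEGFA, NDRG1 and EPO, which the study assayed, had a median difference of -0.22, with 1 of the 5 above both other replicates. The 8 hepatocyte and hepatoma markers had a median of -0.81, with 1 of the 8 above both. The kinase list had a median of -0.02 and the list of the IRE1 and ATF6 arms -0.03. Of the 3 markers of other cell types that could be tested, 2 were above both other replicates, with a median of 0.93, at low levels. COL1A1, the fibroblast collagen gene, was the highest of them, at 5.36, 5.42 and 10.4 CPM with 32-134D. What sets this library apart was not tested, nor was the part of these markers in it. Without it, 29 of the 35 ATF4 targets were called lower in the comparison with vehicle at 1% O2, and 17 remained higher than in vehicle at 20% O2. Without replicate 1 of 32-134D, 17 of the 35 were lower. The core genes' counts were 8 lower with 32-134D and 6 above vehicle at 20% O2 both with and without replicate 3.

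**Figure D4:**
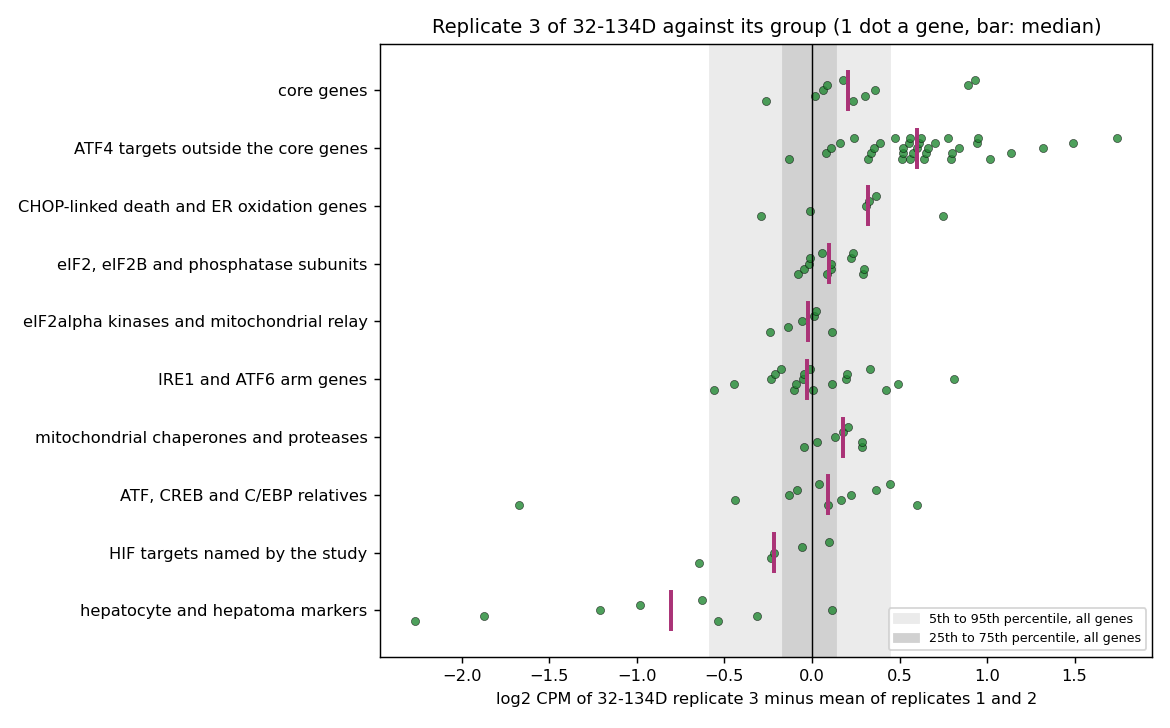
Log2 CPM of replicate 3 of 32-134D minus the mean of replicates 1 and 2, with 1 dot for each gene of a list and a bar at the list's median. Shading marks the 5th to 95th and the 25th to 75th percentile of 11141 genes. That spread is of single genes and not of medians. The ATF4 targets have their median at 0.60, and the hepatocyte markers have theirs at -0.81.

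A list of 6 genes of cell death and oxidation in the endoplasmic reticulum was linked to CHOP from general knowledge. Of these, 4 were higher in hypoxia and the same number lower with 32-134D. Whether CHOP acts on them in these cells was not tested. Over all genes tested, 19.5% were called higher in the first of these comparisons and 13.7% lower in the second. GADD45A, a growth arrest gene, had 19.6, 15.7 and 15.6 CPM in vehicle at 20% O2, 147, 204 and 201 CPM in vehicle at 1% O2, and 51.8, 54.2 and 52.5 CPM with 32-134D, which gave log2 fold changes of 3.43 and -1.80. The oxidase gene ERO1A gave 2.01 and -1.41, and BBC3, which encodes the death protein PUMA, gave 1.26 and -0.76. PMAIP1, which encodes NOXA, was called but was low, at no more than 0.66 CPM in any library and with 1 count in all in vehicle at 20% O2, so no fold is given for it. BCL2L11 and the death receptor gene TNFRSF10B, with 0.34 and 0.54 in hypoxia, were not called. Relative to vehicle at 20% O2, 3 of the 6 were higher with 32-134D, and 1 was without replicate 2 of vehicle at 20% O2 or without replicate 3 of 32-134D. Over all genes tested, 3.0% were called higher in that comparison.

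The other arms of the response to unfolded proteins had calls in both directions. Of 18 genes of the IRE1 and ATF6 arms, 6 were higher and 3 lower in hypoxia, with a median log2 fold change of 0.15. Over all genes tested, 19.5% were higher and 20.3% lower, and with counts this small nothing particular to the list is read from them. DNAJB9, a co-chaperone, and HERPUD1, a factor of protein degradation at the endoplasmic reticulum, rose by 3.07 and 2.15 and fell by 1.56 and 1.14 with 32-134D. The sensor gene ERN1, which encodes IRE1, rose by 1.19, and XBP1, its substrate, by 0.94. CRELD2, SEL1L and SDF2L1 were lower in hypoxia, at -0.74, -0.71 and -0.60, and SEL1L was 0.81 higher with 32-134D. With 32-134D 3 genes of this list were lower and 1 higher than in vehicle at 1% O2, beside 13.7% and 16.2% of all genes. Against vehicle at 20% O2, 3 of the list were higher, beside 3.0% of all genes. Without replicate 3 of 32-134D, 4 of the list were lower than in vehicle at 1% O2, with ERN1 added at -0.60. In that fit 2 of the list were higher than in vehicle at 20% O2. Of 7 mitochondrial chaperones and proteases, 3 were higher in hypoxia, which were CLPP (1.12), HSPD1 (0.85) and HSPA9 (0.69), and CLPP alone was lower with 32-134D (-0.77).

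**Figure D5:**
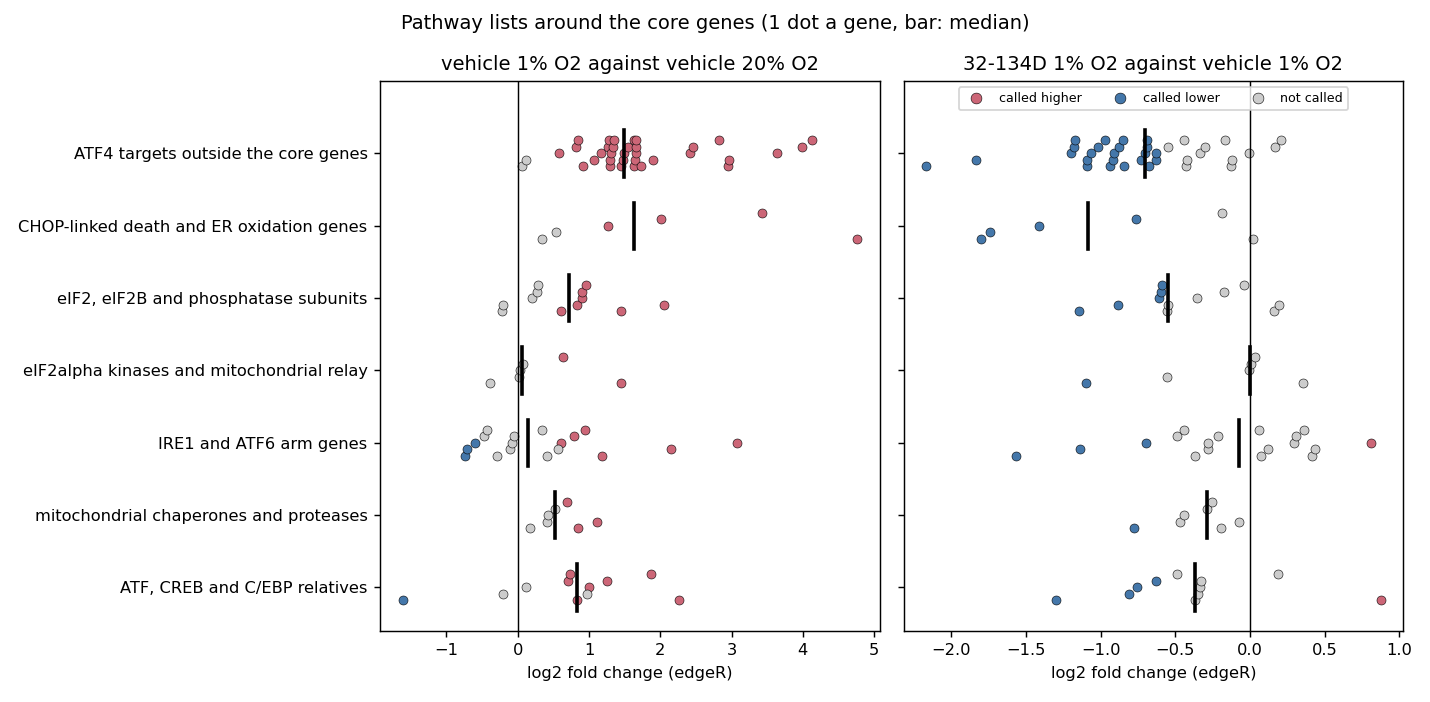
Log2 fold change (edgeR) of each gene in 7 lists around the core genes, in hypoxia on the left and with 32-134D on the right, with a black bar at each list's median. Red dots were called higher, blue dots lower, and gray dots were not called. The targets of ATF4 lie almost wholly on one side of 0 in each panel, with medians of 1.49 and -0.70. Dots of the IRE1 and ATF6 arms lie on both sides. The dot farthest right in the list linked to CHOP is PMAIP1, whose fitted value rests on 1 count in vehicle at 20% O2.

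Relatives of these factors in the ATF, CREB and C/EBP families had calls in both directions. Of 11 genes, 7 were higher and 1 lower in hypoxia, and 4 were lower and 1 higher with 32-134D. Over all genes tested, 19.5% were higher and 20.3% lower in hypoxia, and 13.7% were lower and 16.2% higher with 32-134D. The single calls in the other direction are not read as particular to the list. CREBRF gave 2.27 and -1.30, CEBPB, a frequent partner of ATF4, gave 1.87 and -0.81, and ATF1 gave 1.26 and -0.76. CEBPA, a factor of hepatocyte identity, fell by 1.61 in hypoxia, from 448 to 474 CPM in vehicle at 20% O2 to 147 to 153 CPM in vehicle at 1% O2. With 32-134D it had 364, 347 and 111 CPM, so that replicate 3 lay below vehicle at 1% O2 while the other 2 lay well above it, and its call of 0.87 higher was lost without replicate 1 or 2 of vehicle at 1% O2, without replicate 1 or 2 of 32-134D and with DESeq2. Relative to vehicle at 20% O2, 3 of the 11 were higher with 32-134D and none lower, or 1 lower without replicate 1 of 32-134D. Over all genes tested, 3.0% were higher and 0.516% lower in that comparison.

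The paralogs of the core genes had calls in both directions. Of 6 paralogs, 5 were tested, and 2 were higher and 1 lower in hypoxia, beside 19.5% and 20.3% of all genes. With 32-134D 2 were lower and 1 higher, beside 13.7% and 16.2% of all genes. With counts this small nothing particular to the list is read from them. Beside PPP1R15B, TRIB1 rose by 0.81 and fell by 0.61 with 32-134D. SESN3 fell by 1.35 in hypoxia, in the opposite direction from SESN2, and with 32-134D it had 25.5, 23.9 and 8.09 CPM, against 10.0 to 11.3 CPM in vehicle at 1% O2. Its call of 0.85 higher with 32-134D was lost without any 1 replicate of vehicle at 1% O2 and without replicate 1 or 2 of 32-134D. The fall of TRIB1 with 32-134D lay near the threshold, and that list's count of lower calls was 1 in place of 2 without replicate 1 of vehicle at 20% O2, replicate 2 or 3 of vehicle at 1% O2, or replicate 1 of 32-134D. SESN1 and CHAC2, at 0.04 and -0.34 in hypoxia, were not called, and TRIB2 had too few counts to be tested.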

How the data were processed

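RNA from 9 Hep3B cultures was sequenced on an Illumina NovaSeq platform. Raw read counts for each Ensembl gene were deposited in 1 table, which per the labels and methods were made with FastQC, STAR on GRCh38 and featureCounts, with versions and strand setting not given in the sources used here. All columns were matched to samples by name, with 0 left over. The labels describe a medium of DMEM and F12 and the paper describes high-glucose DMEM.

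Genes with a total of 10 or more counts were tested in 1 fit of the 3 groups with edgeR 4.0.16 (TMM scaling, quasi-likelihood test, R 4.3.3) and Benjamini-Hochberg adjustment. The common coefficient of variation was 10.5%. The filter and the thresholds are those of the paper, which used DESeq2. Profiles used log2 CPM with a prior count of 2. Total counts of 6013980 to 40549699 per library and 3 replicates limit the precision. Replicate pairs differed by more than counting error (chi-square per degree of freedom 1.62 to 36.4). Exon lengths, positions and leaders came from GENCODE version 29, and promoter windows from RefSeq.

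The genes and lists were chosen with earlier results of these data known. All 10 core genes are named, every gene of a list of up to 6, and of longer lists the 4 that moved most on the log2 scale among those called in hypoxia, those called in the opposite direction, and paralogs. Alternatives were DESeq2 1.42.0, other scalings, count filters, fold change thresholds, fits of 2 groups, a replicate block, thinning to the smallest library, and leaving out each library. The procedure was tested on simulated data with 200 changed genes for each comparison. Of these, 96.5% to 98% were recovered, and 3.45% to 7.11% of the calls were false. A larger share of genes was called in the data, at 39.7%, 29.9% and 3.52%, so the simulation does not match them.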

Additional observations from a re-analysis of the deposited data

How the results depend on the processing

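The counts of core genes called kept within 1.5 times of their values under every alternative run, which were DESeq2, 3 other scalings, 2 other count filters, 2 other fold change thresholds, fits of the 2 groups compared, a replicate block, thinning to the smallest library and leaving out each library. The same alternatives were run for the ATF4 targets, those other than DESeq2, total library size, the replicate block and leaving out a library having been added after the data were seen. Their counts also kept within 1.5 times, except with a fold change above 2, where 9 targets were lower with 32-134D in place of 23 and 10 were above vehicle at 20% O2 in place of 25. Without 1 library, 17 to 29 targets were lower with 32-134D. Leaving out 1 library gave 9 core genes higher in hypoxia each time, 6 to 8 lower with 32-134D and 6 to 7 above vehicle at 20% O2. Of the values of single core genes under the alternatives, 567 kept their direction and side of the thresholds, 18 lost a call, 8 gained one and 7 changed sign.

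The sign changes were all in values that were not called. With 32-134D, ATF5 was 0.0486 with total library size. Against vehicle at 20% O2, NUPR1 was -0.0680 with upper-quartile factors, -0.0223 with total library size, -0.0109 when every library needed at least 10 counts, and -0.0443, -0.0191 and -0.0516 without replicate 3 of vehicle at 20% O2, replicate 1 and replicate 2 of 32-134D. Its highest value with 1 library left out was 0.0859, without replicate 3 of 32-134D. The calls that were lost were mostly of CEBPG with 32-134D, in 10 of 20 alternatives with a range of -0.69 to -0.45, and of CHAC1 with 32-134D, in 4 with a range of -1.08 to -0.51. The cause was not tested.

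The balance of directions over all genes rests on the scaling. With total library size, 3081 genes were higher and 5848 lower in hypoxia, against 4412 and 4595 with TMM, and 4755 were higher and 1847 lower with 32-134D, against 3675 and 3100. The median log2 fold change of all genes was then -0.21 in hypoxia and 0.17 with 32-134D, against 0.0010 and -0.012 with TMM. With upper-quartile factors the counts were 3187 and 5733, and 4318 and 2213. The 9 core genes raised in hypoxia kept their direction under each.

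Deviations of libraries with the same replicate number correlated between -0.144 and 0.0621. Between 32-134D and vehicle at 20% O2 the same number was the best match for each replicate, with correlations of 0.0240 to 0.0326. In the other comparisons it was not the best match for any replicate. With groups of 3 these correlations cannot settle whether the numbers pair the samples. With the number as a replicate block, 9 core genes were higher in hypoxia, 8 lower with 32-134D and 6 above vehicle at 20% O2, and no call of a core gene changed. Depth limits PMAIP1 and TRIB2, and the smallest library had 6013980 counts.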
